A study of Mus musculus with 4 samples.

Results

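NR2F1 (COUP-TFI) signal was examined at Gata2, Gata3, Zfpm1 and Zfpm2, which encode a pair of GATA zinc-finger transcription factors and the FOG cofactors FOG1 and FOG2. These 4 genes were chosen by gene family. Their regions were chosen by called NR2F1 peaks: peaks from different libraries were joined where they shared 1 bp or more, and every merged region within the gene body plus or minus 20 kb was taken. This gave 76 of the 263639 merged regions. Of these, 19 had a peak in all 4 libraries, and 18 of them reached 10 cut sites in 2 or more libraries, as did 35770 merged regions genome-wide. These 18 regions are called tested regions, and the presence of a peak in them is what selected them and is not a finding.

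In single-cell CUT&Tag, an antibody guides the transposase Tn5 to the protein of interest, and the places where it cuts DNA are counted cell by cell as cut sites. The anti-NR2F1 libraries came from the microdissected rhombomere 4 hindbrain of embryonic day 10.5 mice, 2 of wild-type genotype (WT, pools of 26 and 26 embryos) and 2 of Fam5snv/snv genotype (pools of 8 and 16 embryos). Fam5snv/snv mice are homozygous for a knocked-in single-nucleotide change in cRE2, a silencer element near Gata2, and all embryos of both genotypes carried the Isl1MN-GFP transgene, which marks motor neurons. Cells were sorted as GFP-positive, and only as the sort finished was the gate lifted to let in GFP-negative cells as well, so the barcodes can include some cells other than motor neurons. No library with a control antibody was analysed here.

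GATA factors bind DNA through zinc fingers, and FOG proteins do not bind DNA alone but join the amino-terminal finger of a GATA factor and recruit corepressor complexes to it. In the hindbrain and spinal cord Gata2 and Gata3 act in sequence in neuronal fate choice, with Gata3 downstream of Gata2, and both are needed for the inner-ear efferent neurons that share their origin with facial branchial motor neurons in rhombomere 4. Zfpm1 is best known as the partner of GATA1 in red blood cells and platelets, and Zfpm2 as the partner of GATA4 in the heart and gonad. NR2F1 is a nuclear receptor whose DNA core is AGGTCA.

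The libraries differed in depth and in how much of the genome their peaks covered. They held 1377 to 2740 barcodes, with 3083946 and 3580517 cut sites in WT and 8967987 and 10341894 in Fam5snv/snv. Called peaks covered 31.0 Mb in WT replicate 1 and 93.1 to 143.1 Mb in the other libraries. Peaks were called and counted in each library separately, so a library has no count outside its own peaks, and WT replicate 1 had no cut site in the windows outside the tested regions. Signal is given as cut sites per 1000000 of the TMM-normalized library size (CPM), and density as CPM per kb. Library pairs shared 3 to 12 barcodes, at most 0.799% of the smaller library.

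Ordered by CPM per kb of window, Zfpm1 and Gata2 carried more signal than Gata3, and Zfpm2 carried the least. The Zfpm1 window (95.1 kb) carried 6.60 and 6.49 CPM per kb in WT and 6.06 and 5.62 in Fam5snv/snv. The Gata2 window (53.1 kb) carried 7.01 and 5.31 CPM per kb in WT and 4.25 and 3.87 in Fam5snv/snv. Zfpm1 was above Gata2 in 3 of the 4 libraries and below it in WT replicate 1, so this order did not hold in every library. With the gene body plus or minus 10 kb, Zfpm1 was above Gata2 in each library (8.10 against 3.86 CPM per kb in WT replicate 1). The Gata3 window (73.0 kb) carried 1.02 and 1.86 CPM per kb in WT and 1.24 and 1.18 in Fam5snv/snv. Gata2 exceeded it 2.86-fold to 6.88-fold, and the ranges of these loci did not overlap. The size of this gap rests on the flank: with the gene body plus or minus 10 kb, which leaves out the distal Gata2 regions past that limit, the cRE1-cRE2 region among them, Gata2 carried 3.86, 3.52, 2.48 and 2.80 CPM per kb in the 4 libraries and Gata3 1.40, 2.56, 1.71 and 1.63, so that Gata2 stayed above Gata3 within each library but their ranges overlapped. The Zfpm2 window (489.6 kb) carried 0.0064 and 0.0251 CPM per kb in WT and 0.0288 and 0.0354 in Fam5snv/snv, and Zfpm1 exceeded it at least 158.8-fold in each library.

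Among the windows of 21938 protein-coding genes, 25.7% of which held no tested region, Zfpm1 lay at percentiles 97.3 to 98.4 and Gata2 at 94.4 to 97.7 over the 4 libraries. Gata3 lay at percentiles 64.6 to 79.9. Zfpm2 lay at 25.9 to 26.1, the lower edge of the windows with any tested region. Its window is long because the gene spans 449.6 kb, so total CPM was compared as well. By total CPM, Zfpm2 lay at percentiles 1.37 to 12.8 among the windows with a tested region, whereas Zfpm1 lay at 99.2 to 99.5.

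**Figure D1:**
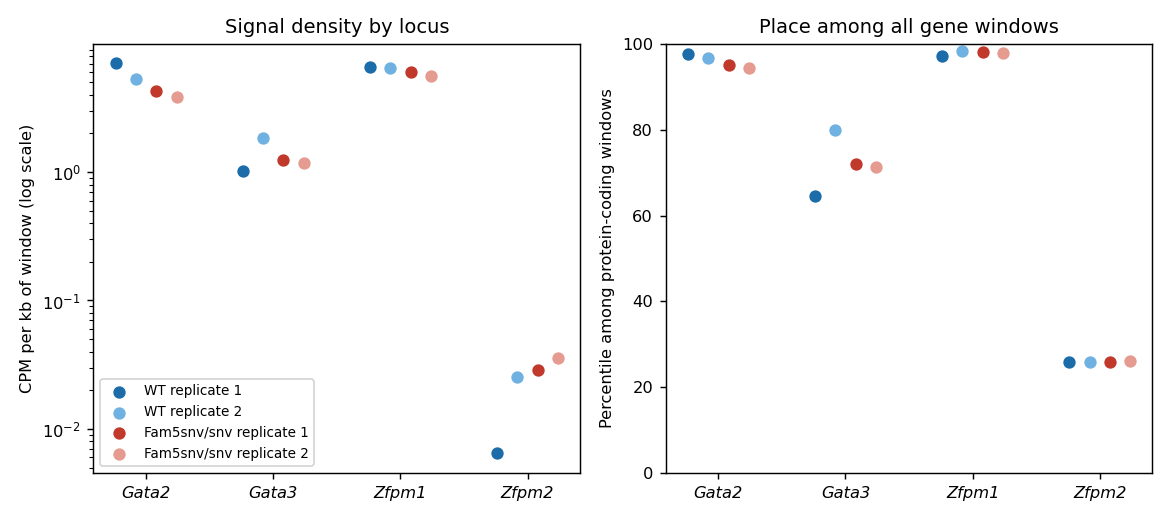
Left: signal density in CPM per kb of window (log axis) at each locus, 1 point per library (blue WT, red Fam5snv/snv). Right: percentile of that density among 21938 protein-coding gene windows. Zfpm1 and Gata2 lie above 94 in every library, Gata3 between 64.6 and 79.9, and Zfpm2 at 25.9 to 26.1.

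By the share of barcodes with a cut site, after each barcode was thinned to 567 cut sites, Zfpm1 was above Gata2, Gata2 above Gata3 and Gata3 above Zfpm2 in every library, WT replicate 1 included. A cut site in the tested regions of Zfpm1 was found in 19.6% (17.8% to 21.4%, exact binomial 95% interval) and 20.04% (17.96% to 22.3%) of barcodes in WT and in 19.9% (18.3% to 21.6%) and 16.9% (15.6% to 18.4%) in Fam5snv/snv. For Gata2 they were 13.4% and 9.51% in WT, against 8.53% and 7.48% in Fam5snv/snv, and for Gata3 they were 2.95% to 4.79% over the 4 libraries. For Zfpm2 they were 0.207% to 0.704%, from 4 to 16 barcodes a library. Thinning left out 641 barcodes of WT replicate 1 and 0 of each other library. Without thinning, the shares for Zfpm1 ran from 25.1% to 47.3%, for Gata2 from 16.8% to 24.7%, for Gata3 from 4.12% to 11.6% and for Zfpm2 from 0.311% to 2.3%, lowest for each locus in WT replicate 1, where the median barcode held 879 cut sites against 1867 to 2984 in the others. Intervals cover counting error only, and no cell type was called, so a background share from cells without NR2F1 cannot be given.

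At the level of whole loci, no member passed an adjusted p under 0.05 for Fam5snv/snv minus WT in edgeR, and neither did any of the 16363 loci tested (0.0%). At an unadjusted p under 0.05, 1 of the 4 loci was lower (Gata2), against 11.9% of all loci, and none was higher, against 2.64%. The Gata2 locus carried 372 and 282 CPM in WT, against 226 and 206 in Fam5snv/snv. Its log2 fold change was -0.60 (SE 0.18, 95% interval -0.99 to -0.21, edgeR adjusted p = 0.317), where the median locus was at -0.16 and 3.67% of loci had a lower value. Leaving out 1 WT library brought it past the threshold: it was -0.39 without WT replicate 1 (edgeR adjusted p = 0.029) and -0.79 without WT replicate 2 (edgeR adjusted p = 6.6e-09), where 1 WT library stood against 2 mutant libraries and was assumed to vary like them. Scaled by the number of barcodes, which moved the median locus to 0.80, the Gata2 value was 0.41, still below that median.

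The other GATA locus did not differ beyond its spread. The Gata3 locus carried 74.3 and 135 CPM in WT, against 90.8 and 86.2 in Fam5snv/snv, with the mutant libraries between those of WT. Its log2 fold change was -0.24 (SE 0.24, 95% interval -0.77 to 0.28, edgeR adjusted p = 0.618), and it was -0.61 without WT replicate 1 (edgeR adjusted p = 0.0072) and turned to 0.25 without WT replicate 2.

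For the cofactors, the Zfpm1 locus carried 628 and 617 CPM in WT, against 576 and 534 in Fam5snv/snv. Its log2 fold change was -0.16 (SE 0.16, 95% interval -0.52 to 0.19, edgeR adjusted p = 0.618), close to that of the median locus. The Zfpm2 locus carried 3.15 and 12.3 CPM in WT, against 14.1 and 17.3 in Fam5snv/snv, from 9, 35, 103 and 137 cut sites. Its log2 fold change was 1.02 (SE 0.58, 95% interval -0.26 to 2.30, edgeR adjusted p = 0.411). It was 0.35 without WT replicate 1 (edgeR adjusted p = 0.660) and 2.31 without WT replicate 2 (edgeR adjusted p = 0.00074), and turned to -0.61 per kb of called peak. DESeq2 called 29 loci (0.357% of those it gave an adjusted p), none of them a member. It gave the Zfpm2 locus no adjusted p, so only the other 3 members could be called.

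Zfpm1 had the widest merged region of the members. Called peaks covered 8897 and 16137 bp of it in WT and 17898 and 18837 bp in Fam5snv/snv. The region over its start site, chr8:122271934-122292765, spans 20832 bp, from upstream of the gene into its first intron, and is the 11th widest of the 35770 tested regions. It held 509 and 470 CPM in WT, against 422 and 343 in Fam5snv/snv, above 99.9% of 12647 tested promoter regions in each library. These have a median width of 2227 bp. Per kb of called peak, it lay at percentiles 88.7 and 84.0 of them in WT and 82.4 and 76.6 in Fam5snv/snv. In CPM each mutant library was below each WT library, as in 21.4% of all tested regions. The log2 fold change of -0.36 (SE 0.25, 95% interval -0.95 to 0.23) did not pass the test (edgeR adjusted p = 0.660). It was -0.30 without WT replicate 1 (edgeR adjusted p = 0.159), -0.41 without WT replicate 2 (edgeR adjusted p = 0.026) and -0.21 without Fam5snv/snv replicate 2. The peak over the start site itself was 5891 bp and 11457 bp wide in WT and 14393 bp and 15960 bp wide in Fam5snv/snv. Its density fell in the reverse order, from 60.8 and 36.6 CPM per kb in WT to 27.5 and 20.3 CPM per kb in Fam5snv/snv. The median tested region moved the same way, from 23.6 and 12.5 to 10.99 and 9.75 CPM per kb of called peak, and the part of peak width in these values was not tested.

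Within that region, 8845 bp lay inside a peak of every library and held 9 matches to AGGTCA on either strand, 1.02 per kb. The corresponding stretches of all tested promoter regions held 0.585 per kb. Those of all tested regions held 0.919 per kb and those away from promoters 1.24 per kb. The shared part of the Zfpm1 region was thus above promoter regions but below regions away from promoters. The matches farther upstream lie in another peak of WT replicate 1 (chr8:122276887-122278691), which held 68.5 CPM per kb against 60.8 in its peak over the start site. These are not shown. The 5 matches inside the longest stretch shared by all libraries are shown because that stretch holds the start site. Each is 30 bases of mm10, read 5′ to 3′ on the strand that carries AGGTCA, which is in capitals. The first and second lie upstream of Zfpm1 and the others in its first intron.
chr8:122280646-122280675, minus strand: tgctccagacccAGGTCAagaatgtgcctc
chr8:122280787-122280816, minus strand: gggaggagccagAGGTCAgctggccttgtt
chr8:122283582-122283611, plus strand: ggcgagagcgacAGGTCAtctgggctgccc
chr8:122285736-122285765, plus strand: caggaagcccccAGGTCAggcgggagttaa
chr8:122285777-122285806, plus strand: gctaaaagatgtAGGTCAccagacacaggt
None of the matches is in the RefSeq promoter window of Zfpm1 (GRCm38.p6, chr8:122281891-122282190), and 16.3% of 32851 such windows hold AGGTCA. The motif was searched on both strands, and a match is a description of the letters only.

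Away from its promoter, Zfpm1 had 8 tested regions, all weaker than the promoter region in every library. They lie in the gene or its flanks, all inside the span of Gm20388, a readthrough model that covers neighbouring genes as well. Going downstream, the regions nearest the promoter had log2 fold changes below 0 and those from the middle of the gene onward above 0. Of the latter, 2 passed an unadjusted p under 0.05, against 5.29% of all tested regions in that direction. With the covered length in the fit, the values above 0 turned below 0.

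The region 13.7 kb upstream (chr8:122266508-122270419) carried 11.9 and 23.9 CPM in WT and 6.97 and 20.5 in Fam5snv/snv. The region 12.1 kb into the gene (chr8:122293630-122294859) carried 17.5 and 15.1 CPM in WT and 15.7 and 9.48 in Fam5snv/snv. The groups overlapped in both. The region at 14.7 kb (chr8:122296095-122297513) carried 12.96 and 12.7 CPM in WT and 11.6 and 7.46 in Fam5snv/snv, both mutant libraries lower. The log2 fold changes of these regions were -0.38, -0.37 and -0.43, each with an interval across 0.

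From 38.5 kb onward, 4 of 5 regions were higher in both mutant libraries than in both WT libraries, as were 23.2% of all tested regions, and these 5 neighbours are not independent of each other. The region at 38.5 kb (chr8:122316127-122325104), over an exon, carried 22.4 and 34.1 CPM in WT and 37.3 and 45.9 in Fam5snv/snv, a log2 fold change of 0.56 (SE 0.28). The intronic region at 48.0 kb (chr8:122328242-122332004) carried 6.66 and 13.7 CPM in WT and 16.4 and 20.2 in Fam5snv/snv, a log2 fold change of 0.85 (SE 0.45). The groups did not overlap in either, and both intervals held 0.

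The region over the 3′ end of Zfpm1 (chr8:122332863-122340257) carried 21.02 and 26.0 CPM in WT and 44.4 and 39.4 in Fam5snv/snv. Its log2 fold change was 0.83 (SE 0.24, 95% interval 0.26 to 1.41, edgeR adjusted p = 0.573, DESeq2 adjusted p = 0.084). This was the smallest unadjusted p among the 18 member regions. The region at 68.5 kb, past the gene (chr8:122349396-122351835), carried 7.36 and 3.52 CPM in WT and 12.99 and 18.8 in Fam5snv/snv, a log2 fold change of 1.55 (SE 0.53, 95% interval 0.29 to 2.80, edgeR adjusted p = 0.573). The region between them, at 61.6 kb (chr8:122341758-122345765), carried 18.9 and 17.9 CPM in WT and 9.43 and 29.3 in Fam5snv/snv, with the mutant libraries on either side of WT. Without WT replicate 2, the regions at 38.5 kb, 48.0 kb and the 3′ end passed the threshold (log2 fold changes 0.89, 1.46 and 1.00, edgeR adjusted p = 0.032, 0.028 and 0.017), but without WT replicate 1 they were 0.28, 0.41 and 0.68 (edgeR adjusted p = 0.564, 0.583 and 0.137). The region at 68.5 kb was 2.17 without WT replicate 1 (edgeR adjusted p = 0.027) and 1.11 without WT replicate 2 (edgeR adjusted p = 0.103).

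Peak length moved with these values. Over the 3′ end region, peaks covered 778 bp and 3502 bp in WT and 5577 bp and 6037 bp in Fam5snv/snv, and the density was 27.0 and 7.43 CPM per kb of called peak in WT and 7.97 and 6.53 in Fam5snv/snv. With the covered length in the fit, the log2 fold change of that region was -1.17, where the median region was at -0.76, and those at 38.5, 48.0, 61.6 and 68.5 kb were -1.17, -0.88, -0.74 and -0.67.

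**Figure D2:**
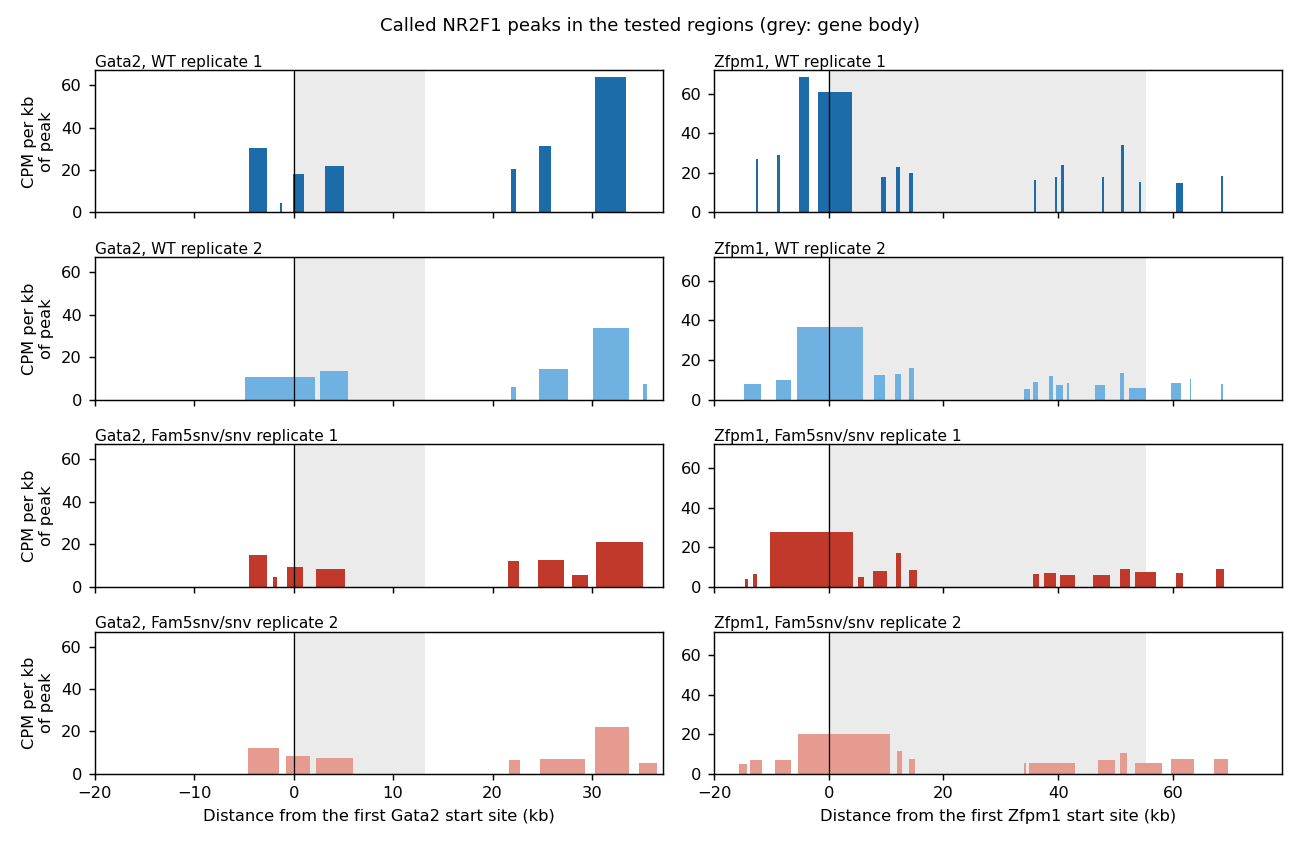
Called peaks in the tested regions of Gata2 (left) and Zfpm1 (right), 1 row per library, against the distance from the first start site in kb (black line; grey, gene body). Bar width is the length of a peak and bar height its CPM per kb, and of the 4 peaks over the Zfpm1 start that of WT replicate 1 is the narrowest and densest (60.8 CPM per kb).

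Zfpm2 had 1 tested region, over its first start site (chr15:40653464-40656389). Its peaks covered 224 bp in WT replicate 1, where no peak reached the start site itself, 1318 bp in WT replicate 2, and 1683 bp and 2926 bp in Fam5snv/snv. The region lay at percentiles 4.21 to 30.1 of tested promoter regions by CPM, and its values are those of the locus. The 224 bp that all libraries shared held 0 matches to AGGTCA. No library had a peak within 1 kb of the other annotated start site. Of the other 20 merged regions, all in introns, 13 had a peak in 1 library only, and none had a peak in WT replicate 1. Those regions held 59 cut sites in WT replicate 2 and 170 and 265 in Fam5snv/snv.

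Gata2 had 5 tested regions: 1 over each start site and 3 past the gene. The strongest, 28.9 kb from the nearest start site (chr6:88224013-88230426), holds the elements cRE1 and cRE2 and was annotated as intronic. It carried 204.6 and 123 CPM in WT and 102 and 83.1 in Fam5snv/snv, more than either promoter region in every library and at percentiles 96.9 to 99.4 of tested regions away from promoters. Its log2 fold change was -0.83 (SE 0.29, 95% interval -1.51 to -0.15, edgeR adjusted p = 0.573, DESeq2 adjusted p = 0.095), and was -0.42 without WT replicate 1 (edgeR adjusted p = 0.161) and -1.15 without WT replicate 2 (edgeR adjusted p = 0.0002).

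The stretch shared by the peaks of all libraries there held 5 matches to AGGTCA in 3085 bp, 1.62 per kb, against 1.24 per kb over the tested regions away from promoters. Around the Fam5 position, 61 bases of the plus strand of mm10 are shown with TGACCT, the reverse complement of AGGTCA, in capitals, because the mutant allele changes this site.
chr6:88224862-88224922, plus strand: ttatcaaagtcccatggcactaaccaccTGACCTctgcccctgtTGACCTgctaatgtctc
The Fam5 change is A31G, counted from 1 at the 5′ end of these bases. It falls in the first of both matches, as T4C counted from the 5′ end of AGGTCA on the minus strand. Each count belongs to a whole peak, so the signal at either match cannot be separated, and neither can that of cRE1 and cRE2. From profiles of the same libraries, the paper reports a lower cRE2 peak in Fam5snv/snv and unchanged peaks at cRE1 and cRE3. The value of this region cannot be set against either element alone.

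Both promoter regions of Gata2 were lower in each mutant library than in each WT library, as were 21.4% of all tested regions. The region over the upstream start (chr6:88188993-88196035) carried 75.3 and 76.3 CPM in WT and 45.2 and 58.0 in Fam5snv/snv, a log2 fold change of -0.55 (SE 0.21). The region over the downstream start (chr6:88196125-88199852) carried 41.0 and 37.3 CPM in WT and 24.3 and 27.8 in Fam5snv/snv, a log2 fold change of -0.58 (SE 0.23). Neither passed the adjusted threshold (edgeR adjusted p = 0.573 for both). The median log2 fold change of all tested promoter regions was -0.21.

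The distal regions nearer to Gata2 did not separate the genotypes. That at 17.7 kb (chr6:88215487-88216619) carried 11.6 and 3.17 CPM in WT and 12.6 and 6.83 in Fam5snv/snv, and that at 22.6 kb (chr6:88218454-88223466), which spans the start of Dnajb8, carried 39.9 and 41.9 CPM in WT and 42.0 and 30.1 in Fam5snv/snv. Their log2 fold changes were 0.40 (SE 0.71) and -0.18 (SE 0.25).

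Gata3 had 3 tested regions, 2 of them over its start sites. The wider (chr2:9876766-9886181) lies over the downstream start site and carried 66.9 and 104 CPM in WT and 74.0 and 71.1 in Fam5snv/snv. It also covers start sites of 4930412O13Rik and 9230102O04Rik, so its signal cannot be given to one gene. The region over the upstream start site (chr2:9888735-9891465) carried 5.61 and 28.5 CPM in WT and 13.5 and 10.1 in Fam5snv/snv. In both the mutant libraries lay between the WT libraries, and the log2 fold changes were -0.24 (SE 0.25) and -0.53 (SE 0.68). Without WT replicate 2 they were 0.12 and 1.07, and without WT replicate 1 that of the upstream region was -1.28 (edgeR adjusted p = 0.044).

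The only other tested region, in an intron (chr2:9870965-9871653), carried 1.75 and 2.46 CPM in WT and 3.28 and 5.06 in Fam5snv/snv, from 5, 7, 24 and 40 cut sites, without overlap of the groups and with a log2 fold change of 0.98 (SE 0.89). The peaks of the 4 libraries there shared no base. The wider promoter region held 3 matches to AGGTCA in the 2164 bp that all peaks shared, 1.39 per kb. They are shown for comparison with the Zfpm1 sites, all on the minus strand, which is the strand of the gene.
chr2:9878432-9878461, minus strand: atctgaccgggcAGGTCAcacgcctcctcc
chr2:9879317-9879346, minus strand: gcgttgtcactaAGGTCAaaagcacacatt
chr2:9879507-9879536, minus strand: ggtccaccccggAGGTCAgggttggatatt
The first lies in an exon of Gata3 and the others in an intron of the transcripts that begin at the upstream start.

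**Figure D3:**
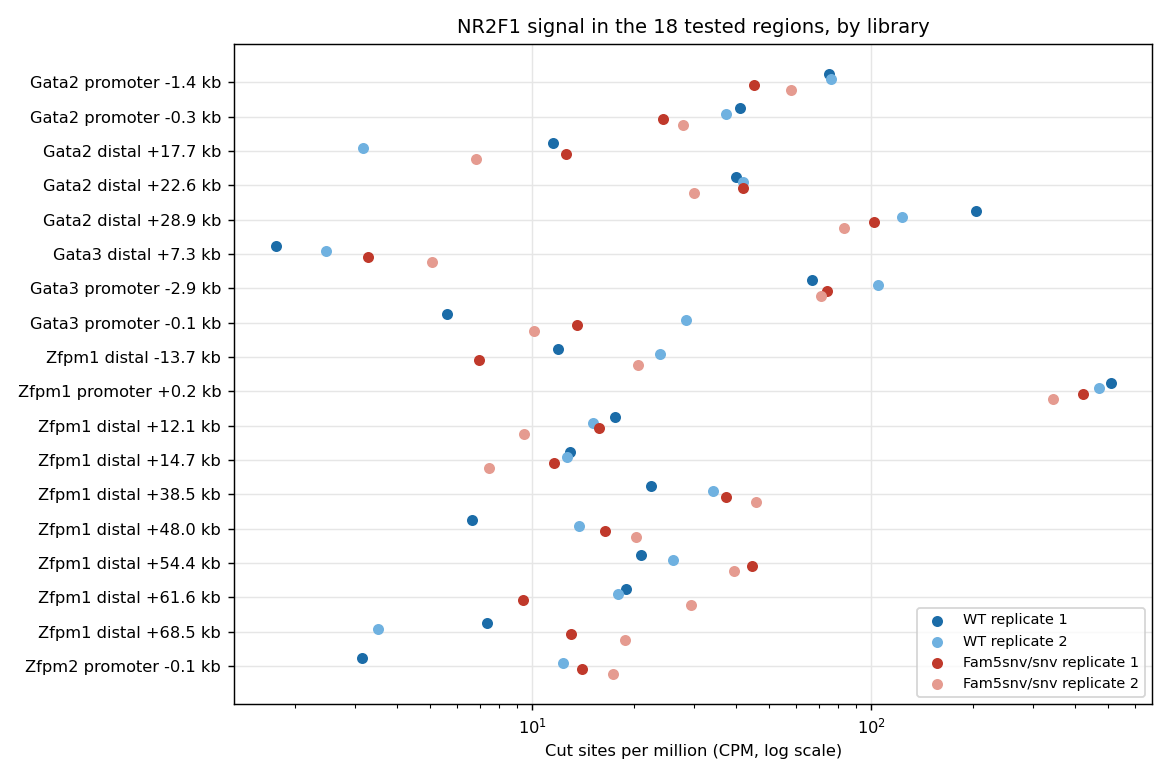
CPM (log axis) in the 18 tested regions, 1 point per library, with the distance of the region's middle from the nearest start site. The Zfpm1 promoter region, from 343 to 509 CPM, stands right of every other region, and the WT libraries are farthest apart in the upstream Gata3 promoter region (5.61 and 28.5 CPM) and the Zfpm2 region (3.15 and 12.3 CPM).

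Over the 18 regions, 0 passed an adjusted p under 0.05 in edgeR (0.0% of all 35770 regions did) and 0 in DESeq2 (1.57%). At an unadjusted p under 0.05, 3 were lower (3.37% of all regions), all at Gata2, and 2 were higher (5.29%), both at the 3′ end of Zfpm1 or past it. Regions of 1 locus are not independent of each other. Without overlap, the mutant libraries were below the WT libraries in 5 regions (27.8% of the 18, against 21.4% of all regions) and above them in 6 (33.3%, against 23.2%). The median log2 fold change of the 18 was -0.21, against 0.02 for all tested regions and -0.21 for tested promoter regions. Whether a change differed between loci was not tested.

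**Figure D4:**
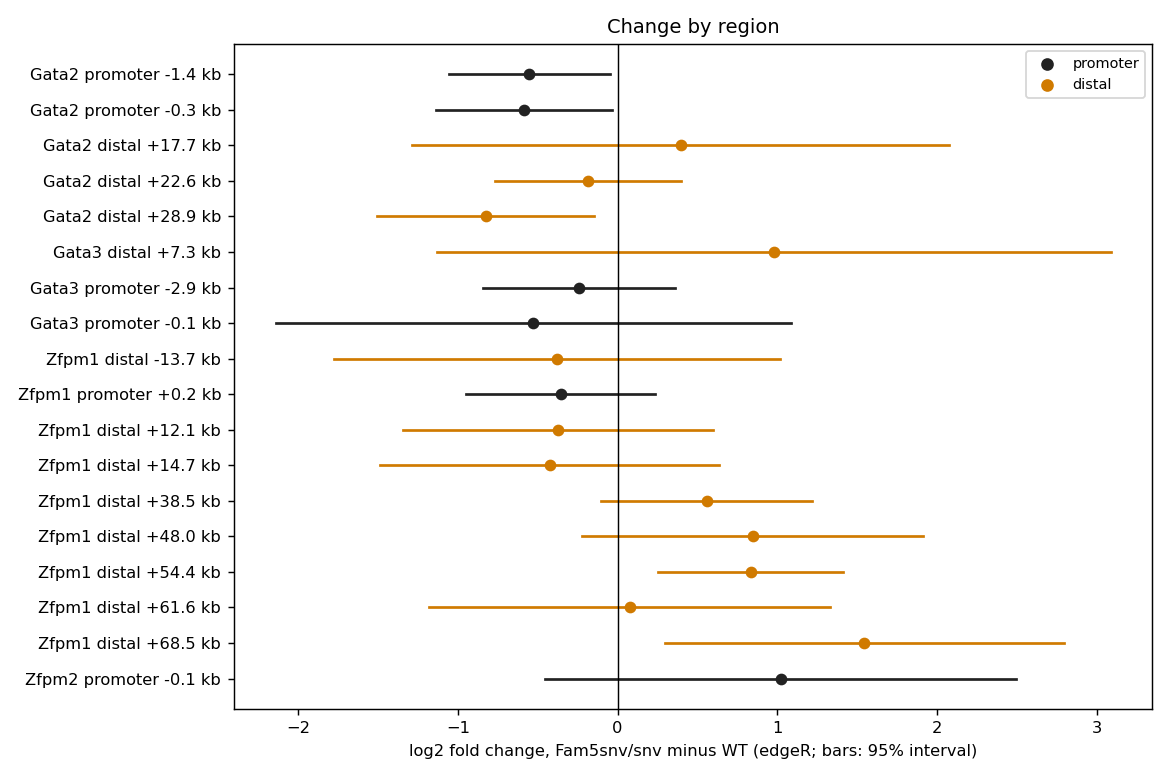
Log2 fold change (Fam5snv/snv minus WT, edgeR) of the 18 tested regions, with 95% intervals; black marks promoter regions and orange distal regions. The 3 intervals wholly below 0 belong to Gata2 and the 2 wholly above 0 to Zfpm1, and no region passed the adjusted threshold.

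The split of signal between promoter and distal regions differed by locus. Of the cut sites in tested regions, promoter regions held 31.2% (exact 95% binomial interval 28.5% to 34.1%) and 40.3% (36.9% to 43.8%) in WT at Gata2, and 30.8% (28.6% to 33.1%) and 41.7% (39.3% to 44.1%) in Fam5snv/snv. At Gata3 they held 97.6% and 98.2% in WT and 96.4% and 94.1% in Fam5snv/snv. At Zfpm1 they held 81.1% (79.2% to 82.9%) and 76.2% (74.1% to 78.1%) in WT and 73.1% (71.8% to 74.5%) and 64.2% (62.8% to 65.7%) in Fam5snv/snv. The ranges of the 3 loci did not overlap in the tested regions, with Gata2 lowest and Gata3 highest. At Gata2 the cRE1-cRE2 region held 584 of 731 and 351 of 479 distal cut sites in WT. In Fam5snv/snv it held 746 of 1145 and 657 of 949. The low promoter share of Gata2 thus rests mostly on this region, which crosses the window edge. The distal Gata2 region at 22.6 kb spans the start of Dnajb8. With all merged regions the shares were 97.6%, 74.6%, 76.0% and 73.5% at Gata3 and 81.1%, 71.0%, 68.0% and 58.6% at Zfpm1, so these ranges overlapped, while Gata3 was above Zfpm1 within each library. At Zfpm2 no distal region was tested.

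Density gave the same contrast between Gata2 and Zfpm1. Per kb of called peak, the summed distal regions of Gata2 carried 50.7 and 22.7 CPM in WT and 15.5 and 11.2 in Fam5snv/snv. These values were above its summed promoter regions in every library (23.6, 11.5, 10.2 and 9.28). Of the distal regions, only that of cRE1-cRE2 was above the promoter value in every library (63.9, 31.3, 21.2 and 15.9). The region at 17.7 kb (20.6, 5.74, 11.9 and 6.44) was above it in Fam5snv/snv replicate 1 only. The region at 22.6 kb (31.1, 14.3, 9.88 and 6.79) was above it in the WT libraries only. With all merged regions the summed distal value of Fam5snv/snv replicate 2 was 8.94, below the promoter value of 9.28. At Zfpm1 the promoter region carried 57.2 and 29.1 CPM per kb in WT and 23.6 and 18.2 in Fam5snv/snv, above its distal regions in every library (20.5, 8.61, 7.41 and 6.66). At Gata3 the promoter regions carried 22.9, 12.2, 8.96 and 8.13 CPM per kb against 9.47, 10.7, 6.86 and 7.34 for its distal region.

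Between genotypes, the log2 ratio of promoter to distal cut sites at Zfpm1 was 2.10 and 1.68 in WT and 1.44 and 0.84 in Fam5snv/snv. The difference of -0.74 was larger than the pooled SD of 0.37, and the two-sided exact permutation test gave p = 0.333, the smallest that 2 against 2 libraries can give. Per kb of called peak the difference was -0.06 (p = 0.667, exact permutation test). At Gata3 the difference was -1.19 (pooled SD 0.41, p = 0.333, exact permutation test), with 5 to 40 distal cut sites a library. Per kb of called peak it was -0.47 (pooled SD 0.55, p = 0.667, exact permutation test), and with all merged regions it was -1.89, or 0.018 without WT replicate 1. At Gata2 it was 0.03 (pooled SD 0.45, p = 1.0, exact permutation test), and per kb of called peak 0.60 (p = 0.333, exact permutation test).

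**Figure D5:**
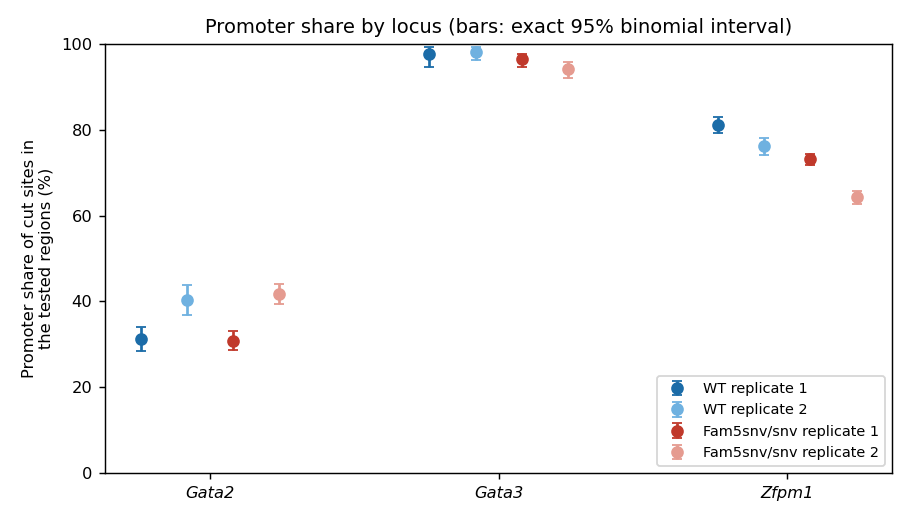
Share of the cut sites in tested regions that lay in promoter regions of the gene (%), for the 3 loci with distal tested regions, 1 point per library with exact 95% binomial intervals. The shares run from 30.8% to 41.7% at Gata2, from 64.2% to 81.1% at Zfpm1 and from 94.1% to 98.2% at Gata3.

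The windows end where the rule places them, and regions at their edges were mostly weak. The outermost regions held 7 cut sites over all libraries at Gata2 upstream, 15 and 108 at Gata3, 24 and 18 at Zfpm1 and 7 at the Zfpm2 3′ end. The next regions outside held 0 and 1 at Gata2, 7 and 20 at Gata3, 6 and 1 at Zfpm1 and 0 and 12 at Zfpm2. The exceptions were the cRE1-cRE2 region, which crosses the Gata2 edge with 2338 cut sites, and the Zfpm2 promoter region with 284, which is the first region inside that window.

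Promoter regions of related genes gave the scale for these values. Of 5 other GATA family genes, 4 had a tested promoter region (Gata1 had none), with mean CPM from 10.0 to 38.8, and 0 passed an unadjusted p under 0.05. Those of smallest p were Gata5, a cardiac and endodermal factor, at 9.81 and 14.1 CPM in WT and 7.93 and 8.35 in Fam5snv/snv, and Gata4, the main heart partner of FOG2, at 15.1 and 24.97 CPM in WT and 27.2 and 23.3 in Fam5snv/snv. The Zfpm1 promoter region, with a mean of 436 CPM, exceeded all of these in total CPM, which is not scaled by width. It spans 20832 bp.

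Genes whose products work in complexes with GATA or FOG proteins, such as LMO2, LDB1 and the NuRD corepressor subunits, had a tested promoter region in 24 of 25. Their mean CPM ran from 5.36 to 225, and the median log2 fold change was -0.30, against -0.21 for all tested promoter regions. At an unadjusted p under 0.05, 1 was higher (Fli1, an ETS factor, 23.5 and 47.1 CPM in WT and 69.2 and 54.4 in Fam5snv/snv), near the 5.29% of all regions, and 0 were lower. Next was Chd4, the NuRD remodeller, at 65.5 and 59.1 CPM in WT and 88.9 and 76.5 in Fam5snv/snv. Neither passed the adjusted threshold (edgeR adjusted p = 0.576 and 0.595).

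Of 18 genes that act with Gata2 and Gata3 in hindbrain and spinal neurons, 14 had a tested promoter region, with a median log2 fold change of -0.06. Of these 1 was lower at an unadjusted p under 0.05, against 3.37% of all regions. It was Dll4, a Notch ligand, at 71.1 and 83.4 CPM in WT and 55.4 and 49.6 in Fam5snv/snv. Next was Sox21, a neural progenitor factor, at 35.4 and 46.4 CPM in WT and 27.8 and 29.0 in Fam5snv/snv. The adjusted p was 0.573 for Dll4 and 0.589 for Sox21 (edgeR).

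CUT&Tag signal is not expression, so marker genes cannot identify the cells here, and their promoters are given only as a measure of the libraries. Motor neuron markers had a tested promoter in 11 of 13 (0 at an unadjusted p under 0.05, summed 1080 and 953 CPM in WT and 1029 and 1038 in Fam5snv/snv), with Chat and Slc18a3, which share 1 region, of smallest p at 54.3 and 54.2 CPM in WT and 62.2 and 80.9 in Fam5snv/snv. Endothelial markers had 3 of 10, of which Erg (24.5 and 23.9 CPM in WT, 50.6 and 48.2 in Fam5snv/snv) and Sox18 (65.2 and 53.5, then 88.6 and 88.1) were higher at an unadjusted p under 0.05 (5.29% of all regions were). The Sox18 region is shared with the promoter of Tcea2, so its signal cannot be given to Sox18 alone. Flt1, the remaining tested marker, carried 6.31 and 35.9 CPM in WT and 26.4 and 22.5 in Fam5snv/snv, with the mutant libraries between those of WT. The sum over the 3 markers, which includes the shared Sox18 region, was 96.0 and 113 CPM in WT and 166 and 159 in Fam5snv/snv. DESeq2 called Erg (adjusted p = 0.0071) and not the others.

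Erythroid and blood markers had 3 of 10, with a sum of 41.3 and 57.3 CPM in WT and 71.1 and 54.7 in Fam5snv/snv. Nfe2 (7.71 and 14.1 CPM in WT, 27.6 and 18.2 in Fam5snv/snv) was higher at an unadjusted p under 0.05 (5.29% of all regions were). Klf1 (21.4 and 16.9, then 15.3 and 15.4) was next. Epor carried 12.3 and 26.4 CPM in WT and 28.2 and 21.1 in Fam5snv/snv, with overlap of the groups. Otic and placode markers had 7 of 8, with Fbxo2 (155 and 108, then 94.1 and 85.5) and Eya1 (13.7 and 24.3, then 14.9 and 12.01) of smallest p and 0 under 0.05. The Fbxo2 region is shared with the promoter of Fbxo44. This list had a median log2 fold change of 0.00 and a sum of 272 and 325 CPM in WT and 273 and 243 in Fam5snv/snv. Mesenchyme and neural crest markers had 7 of 10, with a sum of 107 and 201 CPM in WT and 149 and 124 in Fam5snv/snv. Prrx1 (9.81 and 22.5, then 7.52 and 5.31) was lower at an unadjusted p under 0.05 (3.37% of all regions were), and Sox10 (31.5 and 24.97, then 27.1 and 17.8) was next. None of these passed the adjusted threshold in edgeR. How many GFP-negative cells each library took in is not known here, and the part of blood and endothelial cells in the member values was not tested.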

How the data were processed

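The authors sorted cells from 2 pools of embryos per genotype, ran single-cell CUT&Tag with an anti-NR2F1 antibody, and processed the reads on mm10 with Cell Ranger ATAC (from the submitters' processing notes; the header of the count matrices gives software version 1.2.0). For each library the authors deposited cell barcodes, called peaks (positions only) and raw counts (whole numbers of cut sites for each peak in each barcode). Peaks were called per library, so wider peaks take in cut sites from more DNA.

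Counts were summed over barcodes per library, without filtering barcodes, calling doublets or clustering. Overlapping peaks were merged (at least 1 bp), and regions with a peak in all 4 libraries and 10 or more cut sites in 2 or more libraries were tested (35770 regions, 74.1% to 99.5% of a library's cut sites). The test was edgeR 4.0.16 (quasi-likelihood, TMM, Benjamini-Hochberg adjustment over all regions) in R 4.3.3, with DESeq2 1.42.0 as an alternative. Locus values sum tested regions over gene bodies plus or minus 20 kb of 16363 protein-coding genes (GENCODE M21), scaled by the size factors of the regions. Promoter regions overlap 1 kb on either side of a start site. The code was tested on simulated data.

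The members and gene lists were chosen with earlier results of these data known. Named were every tested member region and, of each list, the 2 genes of smallest p by the promoter region of highest mean CPM. Flt1 and Epor, the remaining tested markers of their lists, were named as well. Replicates are separate embryo pools, with 2 residual degrees of freedom and a biological coefficient of variation of 0.305 over regions. Alternatives were other size factors, filters, windows, peak length as an offset, scaling by barcodes, a replicate block and each library left out.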

Additional observations from a re-analysis of the deposited data

Results flagged for a closer look

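At 5 merged regions of the member windows, both Fam5snv/snv libraries had a called peak and neither WT library had one, so they entered no comparison. The region 14.5 kb from the nearest Gata2 start site held 11 and 10 cut sites in the Fam5snv/snv libraries (21 in all). At Zfpm1, the region at 18.3 kb held 32 and 65 (97 in all) and that at 44.2 kb held 21 and 49 (70 in all). At Zfpm2, the region at 42.3 kb held 41 and 56 (97 in all) and that at 329.2 kb held 10 and 7 (17 in all). The WT libraries have no count there because counts exist only inside a library's own peaks, so a difference in signal cannot be given. Of the member regions, 6.58% had this pattern, against 8.79% of all 263639 merged regions, and the reverse pattern (peaks in both WT libraries only) was found in 0 member regions and in 47 regions genome-wide.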

How the results depend on the processing

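No count of calls was stable to the choice of tool or library. Regions past the adjusted threshold numbered 0 in the edgeR test, 560 with DESeq2, 18 where each library covered at least 50% of the region, and 0 to 6315 with 1 library left out. Loci numbered 0 with edgeR, 29 with DESeq2 and 0 to 4755 with 1 library left out, where a lone library of a genotype is assumed to vary like the others. The highest counts came without WT replicate 2 and the next without WT replicate 1 (1911 regions and 1265 loci). With the replicate block the counts were 0 for regions and 0 for loci, and the block turned 1 of 18 regions, that of Zfpm1 at 61.6 kb, from 0.08 to -0.13. The replicate numbers did not pair the samples (r = 0.03 between replicate differences over 35770 regions). Scaled by the number of barcodes, the log2 fold changes of the lower loci became 0.41 (Gata2), 0.59 (Gata3) and 0.79 (Zfpm1). Those of the lower regions became 0.38, 0.38, 0.77 and 0.24 at Gata2 (upstream and downstream promoter, 22.6 kb, cRE1-cRE2), 0.62 and 0.18 at the Gata3 promoters, and 0.40, 0.61, 0.63 and 0.55 at Zfpm1 (upstream, promoter, 12.1 and 14.7 kb), where the median region was at 0.97. Per kb of called peak, values that turned were -0.53 (Gata2, 17.7 kb), -0.50 (Gata3 intron), -1.17, -0.88, -1.17, -0.74 and -0.67 (Zfpm1 from 38.5 to 68.5 kb) and -0.62 (Zfpm2 region, locus -0.61). With 1 library left out, the log2 fold change ran from -0.26 to 1.60 (Gata2, 17.7 kb), -0.44 to 0.041 (22.6 kb), -0.53 to 0.12 and -1.28 to 1.07 (Gata3 wider and upstream promoter), -0.61 to 0.25 (Gata3 locus), -1.36 to 0.21 (Zfpm1 upstream) and -0.96 to 0.67 (Zfpm1, 61.6 kb). The promoter to distal difference at Gata2 was -0.12 with all merged regions and ran from -0.32 to 0.37 with 1 library left out. Mean density with the gene body plus or minus 10 kb was 3.16 (Gata2), 1.83 (Gata3) and 7.49 (Zfpm1) CPM per kb, and that of Zfpm2 with all merged regions was 0.0635. The causes were not tested. Depth limits the regions with few cut sites in a library, such as Zfpm2 and the Gata3 intron (9 and 5 in WT replicate 1).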
